A study of Mus musculus with 9 samples.

Results

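The mitochondrial ribosomal protein genes were taken as all genes with a symbol of Mrpl or Mrps followed by a number and at most 1 further letter, which gave 78 genes of the 46078 identifiers in the counts. They comprised 49 Mrpl and 29 Mrps symbols, spread over 17 chromosomes. RNA-seq had been performed on EGFP-SSCs, a wild-type mouse spermatogonial stem cell line that carries green fluorescent protein and is grown on mitomycin C-treated feeders of mouse embryonic fibroblasts. The 0 h group was this line in normal culture. The 24 h and 48 h groups were the same line after co-culture, at a ratio of 1 to 1, with testicular somatic cells of busulfan-exposed mice aged 3 to 7 days, in α-MEM with KSR, BMP-4/7, retinoic acid, activin A, testosterone, FSH and BPE, and were sorted by flow cytometry for EGFP. The labels give this sort for the co-culture groups only. The paper states that flow cytometry was used to sort SSCs of several culture stages before RNA-seq, without naming 0 h. Whether the 0 h cells passed the same gate, which bears on each comparison with 0 h, is not clear from these sources. Each group held 3 libraries that the labels call biological replicates, all of 1 line, so that the p-values describe the spread between these cultures. The labels name no strain and no batch.

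The mitochondrial ribosome, or mitoribosome, translates the few mRNAs of the mitochondrial genome, whose products are all subunits of the oxidative phosphorylation complexes. Its rRNAs are transcribed inside the organelle, whereas every one of its proteins is encoded in the nucleus, made in the cytosol and imported. Some of these proteins descend from bacterial ribosomal proteins, and others are found only in mitochondria. In the testis, spermatogonia are known for sparse, rounded mitochondria, and reliance on oxidative phosphorylation increases as germ cells differentiate.

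By position in the ribosome, 51 of the 78 genes encode large-subunit proteins and 26 encode small-subunit proteins. The symbols do not always match this position. Mrps18a and Mrps30, although named as small-subunit genes, encode proteins of the large subunit, and Mrps36 encodes an adaptor of the 2-oxoglutarate dehydrogenase complex rather than a ribosomal subunit. In the large subunit, 30 proteins have a bacterial homologue and 21 are mitochondrion-specific, against 16 and 10 in the small subunit.

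In these cells 77 of the 78 genes passed the filter on low counts in every comparison. The exception was Mrpl53, which held 1 count in 1 library at 48 h and 0 counts in each of the other 8. Its exons, on chromosome 6 from 83109040 to 83109939 (GRCm38), lie for 88.0% of their length inside those of Gm42688 on the same strand, so the level of Mrpl53 could not be read from these counts. The total counts of the libraries ran from 16825251 to 22201892, and the 78 genes together took 0.305% to 0.396% of them.

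Levels within a gene are given as CPM, its counts scaled to the normalized library total, and levels were compared between genes as FPKM, the same scaled per 1000 bases of exon. The highest mean levels over the 9 libraries were those of Mrpl2, at 72.3 FPKM, and Mrpl28, at 72.2 FPKM. Both encode large-subunit proteins, Mrpl2 that of a conserved protein near the peptidyl transferase centre. Their order was not resolved, with Mrpl2 at 74.0 ± 23.5 FPKM and Mrpl28 at 75.04 ± 19.3 FPKM at 0 h (SD, n = 3). Next came Mrpl34 at 60.7 FPKM, Mrpl38 at 53.5 FPKM and Mrpl52 at 48.7 FPKM. The lowest tested genes were Mrpl32 at 2.71 FPKM, Mrpl33 at 2.99 FPKM and Mrps35 at 3.00 FPKM, and the median gene stood at 17.7 FPKM. The range from lowest to highest was 26.7-fold. Lengths taken from the longest transcript kept 4 of the 5 highest genes and put Mrpl38 first, at 96.7 FPKM. With these lengths Mrpl32 was still the lowest, at 4.48 FPKM. The exons of Mrpl33 and Mrps35 span 7326 and 8631 bases, against 2741 and 4607 bases in the longest transcript. Their low rank thus depends on the length used. In CPM the lowest tested gene was Mrps28, at 7.22 CPM.

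The libraries of a group were not alike in these genes. For each gene the level in a library, log2(CPM + 0.5), was set against its mean over the 9 libraries, and the median over the 77 genes was taken. At 0 h this median was -0.20 in replicate 1, 0.05 in replicate 2 and 0.24 in replicate 3. At 24 h it was 0.03, -0.08 and 0.16, and at 48 h it was -0.08, -0.00 and -0.11. The median over all genes tested stayed between -0.01 and 0.02 in each library. Among the 0 h libraries, replicate 1 was the lowest for 59 of the 77 genes and replicate 3 the highest for 57, where over all genes the same libraries were lowest for 42.8% and highest for 40.3%. At 24 h, replicate 3 was the highest for 59 genes, 76.6% beside 37.4% of all genes. At 48 h, replicate 2 was the highest for 47, 61.0% beside 37.3%, while no library was the lowest for most genes, replicate 3 being so for 36 and replicate 1 for 27. The offset of 0 h replicate 1 was -0.32 for the genes with a GC content at or above their median of 49.8% and -0.16 for those below it. The spread within a group accordingly was widest at 0 h, with a median coefficient of variation of 18.2% there, 8.997% at 24 h and 5.64% at 48 h, against 19.5%, 9.82% and 9.62% over all genes.

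**Figure D1:**
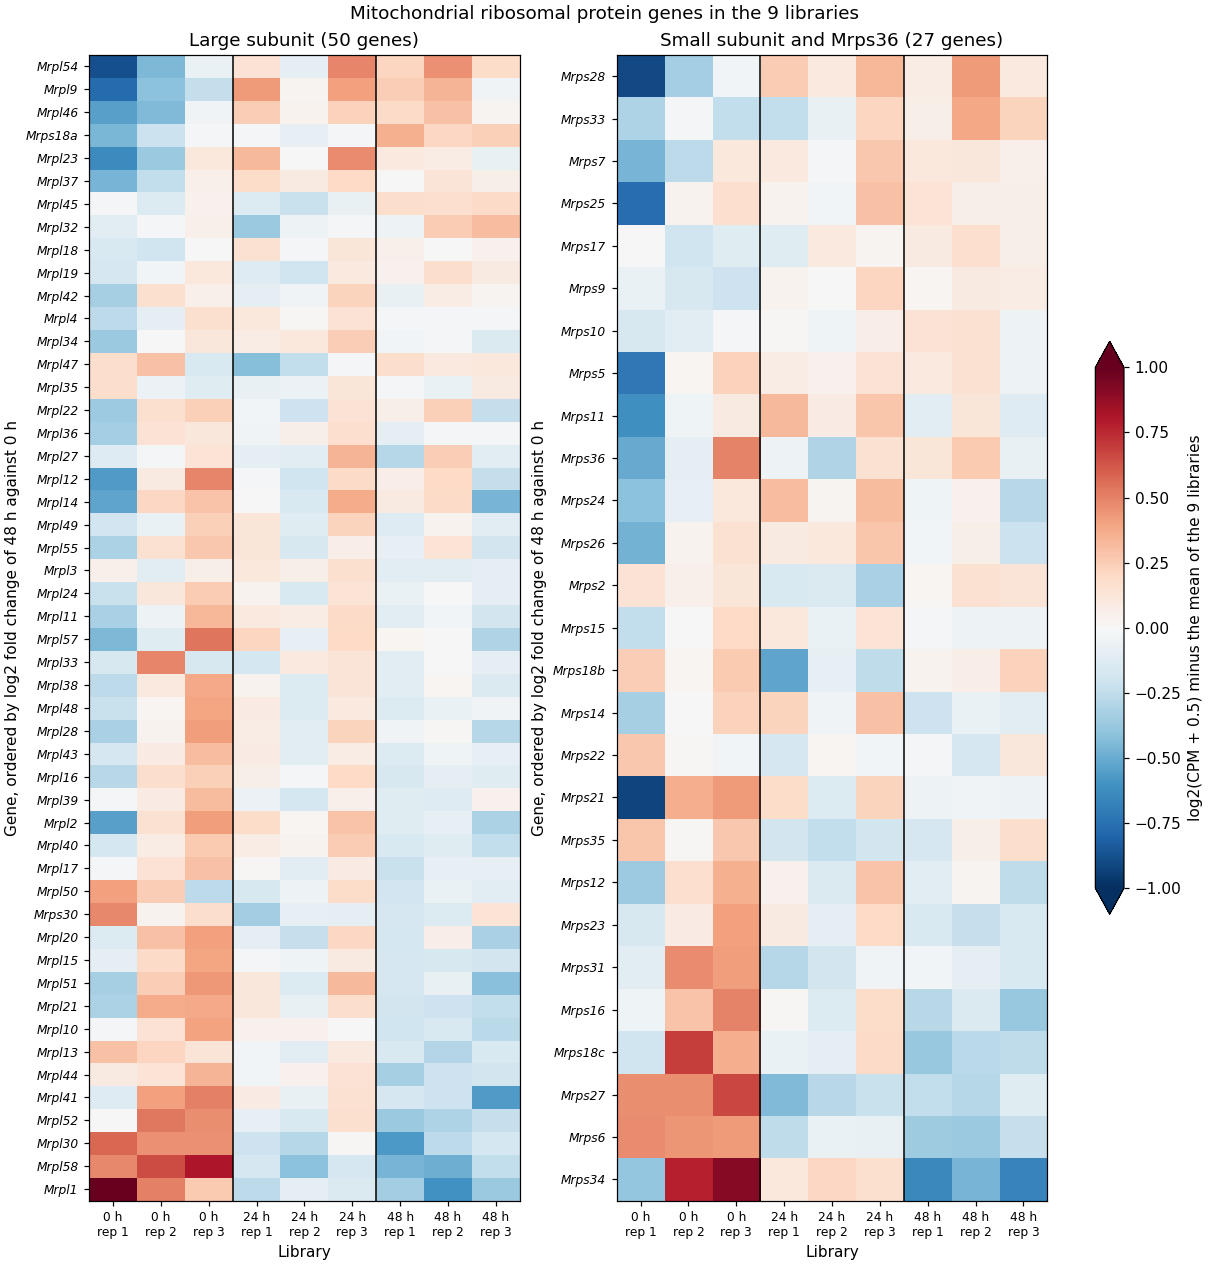
Level of each of the 77 tested genes in the 9 libraries, as log2(CPM + 0.5) minus the mean of the gene over the libraries (colour, cut at 1 either way), with large-subunit genes on the left, small-subunit genes and Mrps36 on the right, and rows ordered by the change of 48 h against 0 h. The 0 h replicate 1 column is lowest of its group for 59 genes. Near the bottom, Mrpl1, Mrpl58, Mrpl30, Mrps6 and Mrps27 are above their mean in the 0 h libraries and mostly below it at 24 h and 48 h. Mrps34, the bottom row on the right, differs, being below its mean in 0 h replicate 1 and at 48 h and above it at 24 h.

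The subunits were next compared as sums. The summed level of the large-subunit genes was 2525 ± 323 CPM at 0 h, 2481 ± 196 CPM at 24 h and 2307 ± 77.4 CPM at 48 h (SD, n = 3). That of the small-subunit genes was 1152 ± 155, 1142 ± 70.4 and 1095 ± 31.0 CPM. The groups overlapped for both subunits at every time. The ratio of the large to the small sum was 2.22, 2.17 and 2.19 in the 0 h libraries, 2.20, 2.11 and 2.20 at 24 h, and 2.11, 2.12 and 2.09 at 48 h. All of the 48 h ratios were below those of 0 h, and they overlapped those of 24 h.

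**Figure D2:**
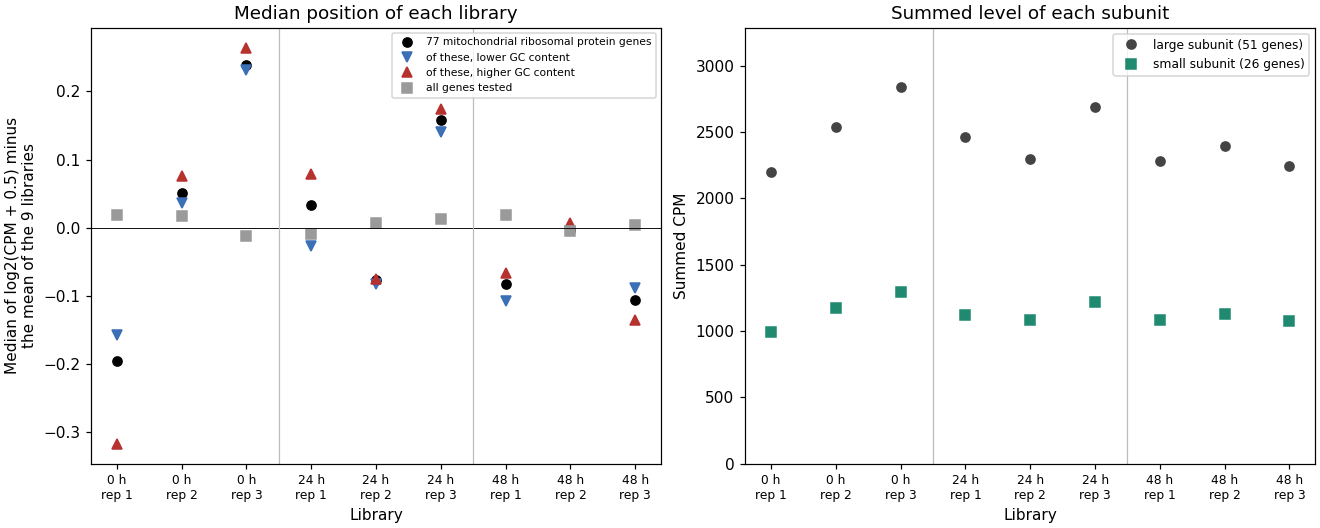
Left, median over genes of log2(CPM + 0.5) minus the mean of the 9 libraries, for the 77 genes, for those of lower and higher GC content, and for all genes tested; right, summed CPM of the large-subunit and small-subunit genes in each library. The 0 h libraries span -0.20 to 0.24 in the 77 genes while all genes stay within -0.01 and 0.02, and the sums run from 2194 to 2841 CPM for the large and from 989 to 1296 CPM for the small subunit.

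The first comparison was 24 h against 0 h. With edgeR's quasi-likelihood test and Benjamini-Hochberg adjustment over all genes, a gene was called at an adjusted p of up to 0.05. In this comparison 6 of the 77 genes were called, 1 higher and 5 lower, which is 7.79% where 25.5% of all genes tested were called (11.4% higher and 14.2% lower). The median log2 fold change of the 77 genes was -0.03, beside 0.01 for all genes, and ran from -0.14 to 0.15 on leaving out 1 library. Of the 77 genes, none changed 2-fold, where 16.0% of all genes did. For 69 genes, 89.6%, the 95% interval of the change lay within 2-fold either way, compared with 53.5% of all genes. In these bulk samples, fewer cells of a type and less RNA per cell cannot be told apart.

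The second comparison was 48 h against 0 h, which uses the same 0 h libraries. Here 13 genes were called, 3 higher and 10 lower, or 16.9% beside 31.6% of all genes (13.0% higher and 18.5% lower). The median log2 fold change was -0.11 beside 0.02 for all genes, and 51 of the 77 estimates were below 0. This median ran from -0.17 to 0.045 on leaving out 1 library, above 0 without 0 h replicate 3, and was 0.0016 with library size alone. A change of at least 2-fold was fitted for 3 genes, Mrps34, Mrpl1 and Mrpl58, where 19.7% of all genes changed so far, and the interval lay within 2-fold for 65 genes, 84.4%, beside 49.1% of all genes. Both subunits contributed, with 9 of 50 large-subunit genes and 4 of 26 small-subunit genes called, and all 3 that rose belonged to the large subunit. By origin, 6 of 46 genes with a bacterial homologue and 7 of 30 mitochondrion-specific genes were called, a difference that was not tested.

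The third comparison, 48 h against 24 h, gave 17 called genes, 5 higher and 12 lower, or 22.1% beside 21.3% of all genes (8.61% higher and 12.7% lower). The median log2 fold change was -0.12 beside -0.00 for all genes. No change reached 2-fold, where 4.59% of all genes did, and the interval lay within 2-fold for 76 of the 77 genes, 98.7%, beside 76.2% of all genes. Over the 3 comparisons, 25 genes were called at least once and 52 never, and no gene was called in opposite directions.

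**Figure D3:**
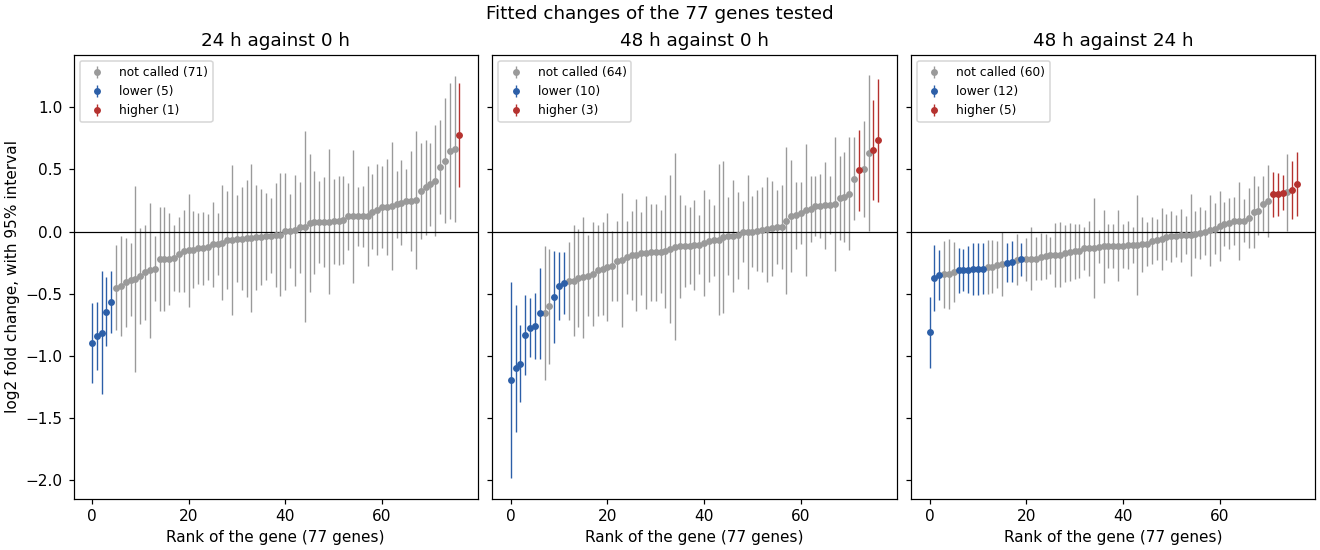
Fitted log2 fold change of the 77 genes with 95% interval, ranked within each comparison, with genes called higher in red, lower in blue and not called in grey. The blue genes are 5, 10 and 12 and the red genes 1, 3 and 5 from left to right, and intervals are narrower in the right panel, where the 0 h libraries take no part.

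These counts changed with the libraries and with the scaling. Without 0 h replicate 1, the counts of called genes were 11 (1 higher) at 24 h and 26 (3 higher) at 48 h, and without 0 h replicate 3 they were 15 (10 higher) and 17 (8 higher). All genes were then called at 29.3% and 38.7%, and at 33.4% and 35.4%. When only library totals set the scale, the median of all genes went from 0.01 to 0.12 at 24 h and from 0.02 to 0.13 at 48 h. This scaling called 6 genes above and 5 below 0 h in the earlier comparison, then 6 above and 7 below, and offsets for GC content and length called 10 above and 5 below, then 10 above and 15 below. The share of all genes called moved as well, to 27.3% and 32.5% with that scaling and to 36.2% and 43% with the offsets. With all 9 libraries in 1 fit, 0 genes were called between 24 h and 48 h. In that fit 9 had an unadjusted p under 0.05 by edgeR, and 5.71% of all genes were called. DESeq2 on the 6 libraries called 15 between these times, with 21.4% of all genes called. Without 24 h replicate 1 only 3 genes were called at 24 h against 0 h, and without 0 h replicate 2, 48 h replicate 1, 48 h replicate 2 or 48 h replicate 3 the count at 48 h against 0 h was 5, 5, 5 or 6. From 24 h to 48 h it was 3 without 24 h replicate 1, 4 without 24 h replicate 3, 2 without 48 h replicate 1 and 3 without 48 h replicate 3. Over these 9 omissions, 10.4% to 22% of all genes were called. The direction of no called gene reversed under any of the 15 alternatives.

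The genes Mrpl58, Mrpl30, Mrps27, Mrps6 and Mrpl1, were lower at both 24 h and 48 h than at 0 h. Their levels had fallen by 24 h, and none was called between 24 h and 48 h. The calls of Mrpl58, Mrpl30 and Mrps27 at both times were kept under all 15 alternatives, as were those of Mrps6 and Mrpl1 at 48 h.

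Mrpl58 (ENSMUSG00000018858, chromosome 11, 115403752 to 115412674, plus strand, GRCm38) encodes a large-subunit protein with peptidyl-tRNA hydrolase activity that rescues stalled mitoribosomes. Its levels were 38.6, 43.5 and 48.7 CPM in the 0 h libraries, 24.5, 20.7 and 24.4 CPM at 24 h, and 19.9, 19.5 and 23.2 CPM at 48 h. Each library of the co-culture was below each 0 h library. The log2 fold change was -0.90 ± 0.14 (SE) at 24 h (edgeR, adjusted p = 0.00291) and -1.06 ± 0.13 at 48 h (edgeR, adjusted p = 0.000982), which left 0.478 of the 0 h level.

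Mrpl30 (chromosome 1, 37890477 to 37898535, plus strand) encodes a conserved large-subunit protein with a bacterial homologue. It was measured at 84.4, 77.8 and 77.6 CPM at 0 h, 48.9, 46.2 and 56.9 CPM at 24 h, and 37.7, 47.1 and 49.85 CPM at 48 h. The 0 h libraries again stood apart from the other 6, which overlapped each other. The changes were -0.65 ± 0.12 (edgeR, adjusted p = 0.00705) and -0.83 ± 0.14 (edgeR, adjusted p = 0.0037).

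Mrps27 (chromosome 13, 99344786 to 99415562, plus strand) encodes a mitochondrion-specific small-subunit protein with pentatricopeptide repeats. Its levels were 56.1, 56.2 and 64.6 CPM at 0 h, 29.7, 33.4 and 34.6 CPM at 24 h, and 34.0, 33.1 and 37.2 CPM at 48 h. All 6 libraries of the co-culture were below those of 0 h and overlapped each other, with changes of -0.84 ± 0.12 (edgeR, adjusted p = 0.00202) and -0.76 ± 0.11 (edgeR, adjusted p = 0.00236). Of its exon length, 24.2% overlaps 6430562O15Rik, an antisense gene at 2.14 ± 0.903 CPM at 0 h that was called in no comparison. How the authors' counting treated strand is not given in the sources used here.

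Mrps6 (chromosome 16, 92058270 to 92112227, plus strand) encodes a small-subunit protein with a bacterial homologue. The 3 libraries of 0 h were nearly equal, at 43.5, 42.6 and 42.1 CPM, followed by 26.1, 29.8 and 29.7 CPM at 24 h and 24.3, 24.1 and 26.6 CPM at 48 h. The changes were -0.57 ± 0.11 (edgeR, adjusted p = 0.00753) and -0.77 ± 0.10 (edgeR, adjusted p = 0.00128). Without 24 h replicate 1 the call at 24 h was lost, at an adjusted p of 0.0537 by edgeR. Of the exon length of Mrps6, 19.9% overlaps Gm49711 on the same strand, and the assignment of reads there is not given in the sources used here.

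Mrpl1 (chromosome 5, 96209493 to 96266727, plus strand) encodes the protein of the mobile stalk next to the site where tRNA leaves the ribosome. Its 0 h libraries differed most, at 62.4, 42.3 and 35.7 CPM, whereas the 24 h libraries held 24.6, 27.8 and 26.8 CPM and the 48 h libraries 23.2, 19.3 and 22.9 CPM. Replicate 1, low at 0 h for most of these genes, was the high one here. The changes were -0.81 ± 0.21 (edgeR, adjusted p = 0.0275) and -1.10 ± 0.22 (edgeR, adjusted p = 0.00777). Without 0 h replicate 1 they were -0.55 and -0.84, and the call at 24 h was lost on leaving out any 1 of the 24 h libraries and with the replicate number as a block (adjusted p by edgeR of up to 0.109).

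**Figure D4:**
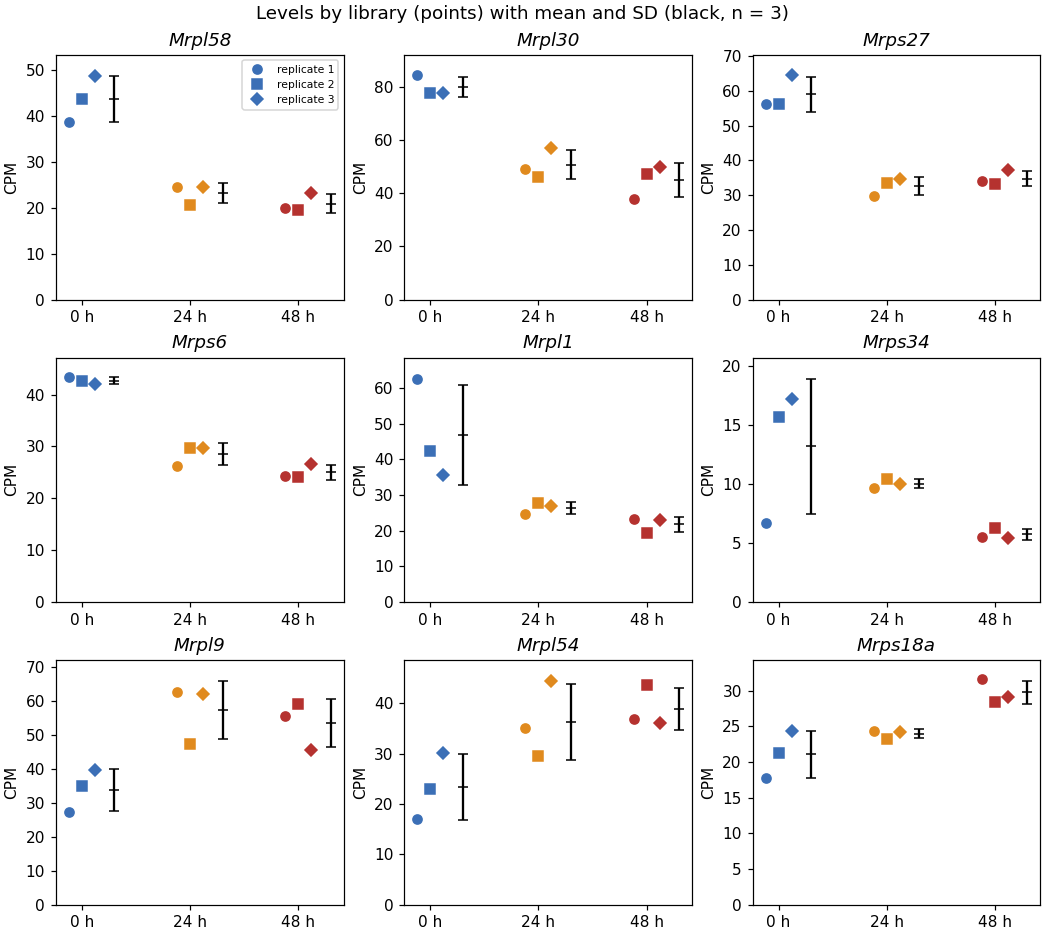
CPM of the 9 genes called against 0 h with the largest changes in either direction, by library (points, shape by replicate number), with mean and SD of each group (black, n = 3) on axes that start at 0. For each gene called against 0 h the points of the called time do not overlap those of 0 h, and Mrpl1 shows the widest 0 h range, from 35.7 to 62.4 CPM.

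Only 1 gene was higher at both times. Mrpl9 (ENSMUSG00000028140, chromosome 3, 94443318 to 94451130, plus strand) encodes a large-subunit protein with a bacterial homologue. It was found at 27.2, 34.9 and 39.6 CPM at 0 h, 62.7, 47.5 and 62.2 CPM at 24 h, and 55.5, 59.2 and 45.6 CPM at 48 h. All co-culture libraries were above all 0 h libraries. The changes were 0.77 ± 0.18 (edgeR, adjusted p = 0.0174), a 1.71-fold increase, and 0.66 ± 0.17 (edgeR, adjusted p = 0.0249). The call at 24 h was lost without 0 h replicate 2, 24 h replicate 1 or 24 h replicate 3, with adjusted p-values of up to 0.0805 by edgeR.

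Mrpl54 and Mrps18a were called higher at 48 h but not at 24 h against 0 h. Mrpl54, for a mitochondrion-specific large-subunit protein, was at 17.0, 22.9 and 30.1 CPM at 0 h, 35.0, 29.4 and 44.4 CPM at 24 h, and 36.8, 43.6 and 36.02 CPM at 48 h. The 48 h libraries were above the 0 h libraries, and the 24 h libraries overlapped both. Its change at 48 h was 0.73 ± 0.21 (edgeR, adjusted p = 0.0347), and at 24 h it was 0.65 ± 0.23 (edgeR, adjusted p = 0.0843).

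Mrps18a is 1 of 3 paralogues, with Mrps18b and Mrps18c, and its protein sits in the large subunit. All 3 are related to a single bacterial protein, but only Mrps18c takes its place in the ribosome and was counted with the bacterial homologues, whereas Mrps18a and Mrps18b were counted as mitochondrion-specific by position. Its levels were 17.8, 21.2 and 24.4 CPM at 0 h, 24.4, 23.3 and 24.2 CPM at 24 h, and 31.7, 28.5 and 29.1 CPM at 48 h. The 48 h libraries exceeded all others, with 0.49 ± 0.14 against 0 h (edgeR, adjusted p = 0.0325) and 0.30 ± 0.08 against 24 h (edgeR, adjusted p = 0.0231). The paralogue Mrps18b, of the small subunit, was at 41.4 ± 3.79, 30.0 ± 4.63 and 39.4 ± 3.03 CPM at the 3 times and rose from 24 h to 48 h by 0.39 ± 0.11 (edgeR, adjusted p = 0.0403). The third paralogue, Mrps18c, stood at 15.4 ± 4.72, 12.3 ± 1.43 and 9.77 ± 0.473 CPM and was called in no comparison, with an adjusted p of 0.0662 by edgeR at 48 h against 0 h. Of the exons of Mrps18b 30.5% overlap Gm16279, and of those of Mrps18c 23.2% overlap Gm43511. The 3 paralogues thus had different profiles over time, a difference that was not tested.

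The largest decrease of all was that of Mrps34, for a mitochondrion-specific small-subunit protein whose loss is known to impair mitochondrial translation. It was counted at 6.68, 15.6 and 17.2 CPM at 0 h, 9.63, 10.4 and 10.0 CPM at 24 h, and 5.50, 6.30 and 5.42 CPM at 48 h. The 24 h libraries were all above the 48 h libraries, and 0 h replicate 1 was close to the 48 h level. The change was -1.20 ± 0.34 from 0 h to 48 h (edgeR, adjusted p = 0.0327) and -0.81 ± 0.13 from 24 h to 48 h (edgeR, adjusted p = 0.00281). The call against 0 h was lost on leaving out 0 h replicate 2 or 3 or any 1 of the 48 h libraries and with the replicate number as a block, and the change was -1.51 without 0 h replicate 1. Of its exon length 77.8% overlaps Mapk8ip3 on the opposite strand, a gene at 241 ± 22.5, 197 ± 9.32 and 198 ± 13.0 CPM that was called in no comparison. How reads of the overlap were assigned is not given in the sources used here.

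Further genes fell by 48 h. Mrpl52 changed by -0.66 ± 0.16 (edgeR, adjusted p = 0.0165), from 67.4 ± 12.8 CPM at 0 h through 52.0 ± 6.07 to 42.6 ± 2.12 CPM. Mrpl44, whose protein carries a fold of the RNase III family, changed by -0.44 ± 0.12 (edgeR, adjusted p = 0.0273), from 62.7 ± 5.98 through 57.0 ± 3.48 to 46.3 ± 2.53 CPM. Mrps16 and Mrpl13, both with bacterial homologues, completed the list, at -0.53 ± 0.16 and -0.42 ± 0.11. Of these 4 genes, Mrpl52, Mrpl44 and Mrps16 were also lower at 48 h than at 24 h, by 0.30 to 0.31 on the log2 scale. These calls were kept in 4, 10 and 4 of 15 alternatives for Mrpl52, Mrpl44 and Mrps16, and were lost for all 3 with GC and length offsets. In each of these genes the 24 h mean lay between those of 0 h and 48 h. The calls at 48 h of Mrps34, Mrpl52, Mrps16, Mrpl44, Mrpl13, Mrpl54, Mrps18a and Mrpl9 were each lost without 0 h replicate 2, 48 h replicate 1 or 48 h replicate 2, with adjusted p-values by edgeR of up to 0.151 over the alternatives. All of these but Mrpl52 and Mrpl54 were also lost with the replicate number as a block.

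Between 24 h and 48 h, the rises other than those of Mrps18a and Mrps18b were Mrpl45, Mrps2 and Mrpl47. Mrpl45, whose protein lies at the exit tunnel and tethers the mitoribosome to the inner membrane, showed 80.6, 75.7 and 84.1 CPM at 24 h and 100.1, 99.7 and 101.1 CPM at 48 h, a change of 0.31 ± 0.06 (edgeR, adjusted p = 0.00885). At 0 h it had 87.6, 80.4 and 91.4 CPM, overlapping 24 h and below every 48 h library. Mrps2, for a conserved small-subunit protein, was at 48.0 ± 1.59 CPM at 0 h, 38.7 ± 2.68 CPM at 24 h and 48.0 ± 2.29 CPM at 48 h, and rose by 0.30 ± 0.08 from 24 h to 48 h (edgeR, adjusted p = 0.0277). Mrpl47, with 24.2% of its exons in Ndufb5, had the same shape, at 33.0 ± 5.22, 26.1 ± 3.85 and 33.2 ± 1.05 CPM. The calls of Mrps18a, Mrps18b, Mrps2 and Mrpl47 between these times were kept in 9, 9, 8 and 6 of 15 alternatives.

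The genes that fell from 24 h to 48 h by the largest amounts after Mrps34 were Mrpl41, Mrpl2, Mrpl40, Mrpl44 and Mrpl21, all of the large subunit, with changes of -0.38, -0.35, -0.31, -0.31 and -0.31. These calls were kept in 3, 7, 7, 10 and 6 of 15 alternatives, and all were lost with GC and length offsets. Mrpl2, the gene with the highest level per length, was at 94.5, 84.3 and 101.2 CPM at 24 h and at 76.4, 78.3 and 66.7 CPM at 48 h, with no overlap (edgeR, adjusted p = 0.022), and its change ran from -0.42 to -0.14 over the alternatives. At 0 h its libraries spanned 56.8 to 110.9 CPM, which covers both later groups. The other genes lower at 48 h than at 24 h were Mrpl3, Mrpl10, Mrpl11 and Mrps14, of which Mrpl10 and Mrpl11 encode proteins at the base of the stalk that recruits translation factors. Their calls were kept in 8, 4, 1 and 6 of 15 alternatives, and that of Mrpl11 was lost with DESeq2 and with every change of scaling or filter. The calls between 24 h and 48 h that were lost only in the fit of all 9 libraries were those of Mrpl45 and Mrps34.

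Genes whose libraries did not overlap were more numerous than the calls. From 0 h to 24 h, 6 genes were higher and 10 lower in every library, which is 16 of 77 where 43.4% of all genes tested were so separated. At 48 h against 0 h these were 10 and 15, beside 48.3% of all genes, and at 48 h against 24 h they were 6 and 21, beside 39.6%. Mrpl46 and Mrps28 were among the separated genes that were not called against 0 h. Mrps28, for a small-subunit protein, had 3.49, 5.41 and 6.83 CPM at 0 h, 8.40, 7.49 and 8.89 CPM at 24 h, and 7.39, 9.56 and 7.50 CPM at 48 h. Its changes of 0.67 ± 0.25 and 0.63 ± 0.27 had adjusted p-values of 0.0968 and 0.115 by edgeR. Mrpl46, for a large-subunit protein, changed by 0.52 ± 0.16 and 0.51 ± 0.16, with adjusted p-values of 0.0536 and 0.0528 by edgeR. Mrps28, Mrpl46, Mrps18c, Mrps16, Mrpl13, Mrpl3, Mrpl10, Mrpl11 and Mrps14 were chosen for description after their values had been seen.

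The genes whose names differ from their position gave the following values. Mrps30 was at 47.2 ± 7.72, 35.3 ± 3.55 and 38.4 ± 4.66 CPM and Mrps36 at 21.6 ± 7.75, 20.4 ± 3.24 and 22.9 ± 2.71 CPM, and neither was called. Of the longest transcript of Mrps36, 38.1% matches the pseudogene Mrps36-ps1. Over all members, 17 share at least 20% of their longest transcript with another gene and 10 overlap the exons of another gene by over 20%.

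Promoter sequences were read for motifs of factors known to act on nuclear genes of mitochondrial proteins. RefSeq promoters (GRCm38.p6, 250 bases before to 50 after the start) were held for 69 of the 78 genes, as 75 promoters, with none for Mrpl13, Mrpl15, Mrpl19, Mrpl38, Mrpl4, Mrpl54, Mrps28, Mrps34 and Mrps35. On either strand, the NRF1 motif was found in 18.8% of the genes beside 5.19% of all genes with a promoter. The ETS letters CCGGAAGT, as read by the GABP factor, were found in 17.4% beside 4.31%, and the YY1 letters AAGATGGC in 17.4% beside 3.19%. The SP1 letters GGGCGG were in 49.3% beside 38.2%, and the E-box letters CACGTG, as read by MYC, in 7.25% beside 8.09%. NRF1 letters were present in 4 of the 22 genes called in any comparison and in 9 of the other 47, ETS letters in 3 and 9, and YY1 letters in 2 and 10. The 47 include Mrpl53, which was not tested and holds none of the motifs read. SP1 letters were in 7 (31.8%) and 27 (57.5%), and E-box letters in 1 and 4, and these differences were not tested. A match describes letters and not an occupied site.

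The promoters of Mrpl9, which rose, and of Mrpl30, Mrps27 and Mrpl58, which fell, are shown to set the letters of both directions side by side, all on the plus strand, 5′ to 3′, at chr3:94443086-94443385, chr1:37890227-37890526, chr13:99344536-99344835 and chr11:115403502-115403801 in that order. Capitals mark the NRF1 motif in the first and second, ETS and YY1 letters in the third, and the fourth holds none of these.
Mrpl9: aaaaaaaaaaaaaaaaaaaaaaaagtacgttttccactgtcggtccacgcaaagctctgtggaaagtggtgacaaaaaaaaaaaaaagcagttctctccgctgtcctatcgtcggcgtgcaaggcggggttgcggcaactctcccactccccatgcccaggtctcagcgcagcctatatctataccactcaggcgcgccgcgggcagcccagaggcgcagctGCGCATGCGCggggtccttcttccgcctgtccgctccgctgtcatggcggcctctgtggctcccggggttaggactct
Mrpl30: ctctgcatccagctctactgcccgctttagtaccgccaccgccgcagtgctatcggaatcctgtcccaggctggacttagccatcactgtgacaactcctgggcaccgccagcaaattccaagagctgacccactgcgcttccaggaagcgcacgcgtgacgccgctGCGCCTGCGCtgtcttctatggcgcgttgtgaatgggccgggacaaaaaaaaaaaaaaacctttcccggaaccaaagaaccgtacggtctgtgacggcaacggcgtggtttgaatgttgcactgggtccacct
Mrps27: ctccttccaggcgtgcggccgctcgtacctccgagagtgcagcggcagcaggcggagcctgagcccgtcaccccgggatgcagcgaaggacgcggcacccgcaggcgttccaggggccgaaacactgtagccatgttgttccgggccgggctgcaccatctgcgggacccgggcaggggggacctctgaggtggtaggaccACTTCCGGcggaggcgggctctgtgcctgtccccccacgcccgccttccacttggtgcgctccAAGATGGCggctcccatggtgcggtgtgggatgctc
Mrpl58: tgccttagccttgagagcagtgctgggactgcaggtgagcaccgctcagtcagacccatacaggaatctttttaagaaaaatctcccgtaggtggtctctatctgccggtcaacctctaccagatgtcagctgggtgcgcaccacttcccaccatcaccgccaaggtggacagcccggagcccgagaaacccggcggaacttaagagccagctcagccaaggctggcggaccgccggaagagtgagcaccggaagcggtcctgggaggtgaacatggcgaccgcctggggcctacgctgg
The riser Mrpl9 and the faller Mrpl30 thus both hold NRF1 letters, and the 3 fallers differ in the letters they hold.

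The other genes of mitochondrial translation were read from lists written for this purpose. The 5 mitoribosomal proteins with other names, which the rule on symbols misses, had no called gene in any comparison by edgeR, with 0, 0 and 1 at an unadjusted p under 0.05 at 24 h against 0 h, 48 h against 0 h and 48 h against 24 h. Of 24 genes of ribosome assembly and rRNA modification, 3 rose from 0 h to 24 h and 1 rose from 0 h to 48 h, with 0 falling. From 24 h to 48 h, 1 rose and 2 fell. The genes called were thus 3, 1 and 3 of 24, beside 25.5%, 31.6% and 21.3% of all genes, a smaller share each time. The same shares of all genes stand beside the 0 called among the 5 proteins with other names. The rRNA methyltransferase genes Mrm1 and Nsun4 rose and then fell. Mrm1 was at 29.9 ± 3.89, 44.5 ± 0.444 and 30.8 ± 2.23 CPM, a change of 0.59 ± 0.13 to 24 h (edgeR, adjusted p = 0.013) and of -0.54 ± 0.08 from there to 48 h (edgeR, adjusted p = 0.00167). Nsun4 was at 31.9 ± 1.33, 45.0 ± 1.42 and 29.6 ± 1.70 CPM. Eral1, for a chaperone of the small-subunit rRNA, rose throughout, at 22.7 ± 3.30, 31.6 ± 1.84 and 39.3 ± 1.59 CPM, with 0.79 ± 0.14 at 48 h against 0 h (edgeR, adjusted p = 0.00449).

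Of 12 translation factors, 2 fell and 0 rose from 0 h to 24 h, whereas 1 rose and 1 fell from 0 h to 48 h and again from 24 h to 48 h. That is 16.7% of the list each time, beside 25.5%, 31.6% and 21.3% of all genes. Gfm2 and Mrrf, whose proteins split and recycle the ribosome after termination, fell at 24 h by 0.53 and 0.51 on the log2 scale, Gfm2 from 69.5 ± 4.95 to 47.8 ± 0.913 CPM and Mrrf from 52.6 ± 5.49 to 36.6 ± 1.19 CPM. Mtfmt, which formylates the initiator tRNA, rose by 0.37 ± 0.12 at 48 h against 0 h (edgeR, adjusted p = 0.0465). Taco1, an activator of translation, fell by 0.33 on the log2 scale from 24 h to 48 h.

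The 20 mitochondrial aminoacyl-tRNA synthetases and amidotransferase subunits moved both ways, with 2 rises and 4 falls from 0 h to 24 h, 7 rises and 4 falls from 0 h to 48 h, and 3 rises and 0 falls from 24 h to 48 h. These calls were 30%, 55% and 15% of the list, beside 25.5%, 31.6% and 21.3% of all genes. The median log2 fold changes of the list against 0 h were 0.27 and 0.31. Wars2, which charges tryptophan tRNA, rose from 3.40 ± 0.606 CPM at 0 h through 5.24 ± 0.620 to 10.1 ± 1.57 CPM at 48 h, a change of 1.56 ± 0.21 (edgeR, adjusted p = 0.00141). Lars2, for leucine, was at 301 ± 167, 616 ± 111 and 914 ± 303 CPM, with a change of 1.59 ± 0.48 at 48 h (edgeR, adjusted p = 0.0404) on a wide spread. Fars2, for phenylalanine, rose by 0.72 ± 0.19 at 24 h (edgeR, adjusted p = 0.0304), whereas Ears2, for glutamate, fell by 0.61 on the log2 scale at 24 h and rose by 0.29 ± 0.07 from 24 h to 48 h (edgeR, adjusted p = 0.018).

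**Figure D5:**
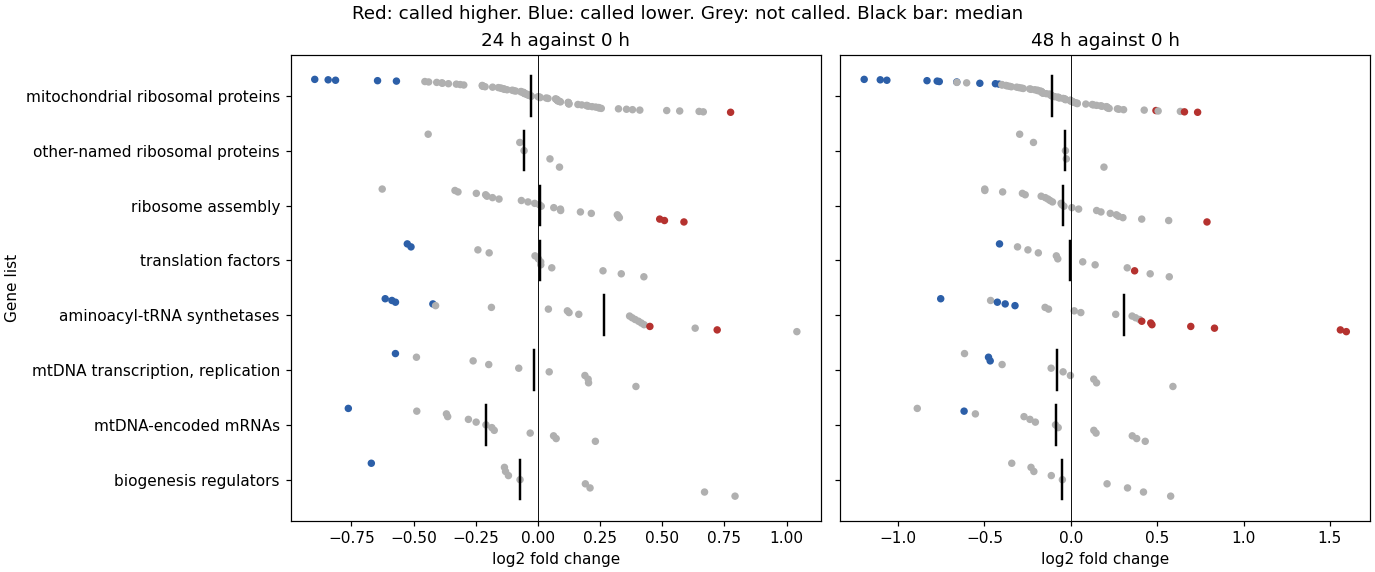
Log2 fold change of each tested gene of the mitochondrial ribosomal protein genes and of 7 further lists, at 24 h (left) and 48 h (right) against 0 h, with genes called higher in red, lower in blue, not called in grey, and the median of each list as a black bar. The medians of the mitochondrial ribosomal protein genes are -0.03 and -0.11, and those of the aminoacyl-tRNA synthetases are 0.27 and 0.31.

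Among 10 genes of mitochondrial DNA transcription and replication, 0 were higher and 1, 2 and 3 lower in the 3 comparisons. That is 10%, 20% and 30%, beside 25.5%, 31.6% and 21.3% of all genes called in either direction. Polg2, for the accessory subunit of the mitochondrial DNA polymerase, fell at both times against 0 h by 0.57 and 0.48 on the log2 scale, Ssbp1, for the single-stranded DNA-binding protein, fell by 0.47 at 48 h, and Slirp, whose protein stabilises mitochondrial mRNAs, and Polg, for the catalytic subunit of the polymerase, fell by 0.54 and 0.30 from 24 h to 48 h. Of the 13 mRNAs that the mitoribosome itself translates, 1 was lower at 24 h and at 48 h and 0 differed between these times by edgeR, with no gene higher. This was mt-Nd3, a subunit of complex I, at 257 ± 50.9, 150.3 ± 34.4 and 167 ± 33.2 CPM. That is 7.69%, 7.69% and 0% of the 13 mRNAs, beside 25.5%, 31.6% and 21.3% of all genes. The median of their levels against the mean of the 9 libraries ran from -0.31 to 0.33 within 0 h. It ran from -0.45 to 0.19 within 24 h and from -0.43 to 0.42 within 48 h. The median standard error of their changes was 0.22, 0.26 and 0.24 in the 3 comparisons, so small changes could not be resolved. Of 9 regulators of mitochondrial biogenesis tested, 1 fell from 0 h to 24 h, 11.1% beside 25.5% of all genes. From 24 h to 48 h, 3 rose and 1 fell, 44.4% beside 21.3% of all genes. Mycn fell by 0.67 on the log2 scale at 24 h and rose by 0.62 ± 0.08 from 24 h to 48 h (edgeR, adjusted p = 0.000859). Esrra, a nuclear receptor that acts with the coactivators of biogenesis, fell by 0.88 on the log2 scale from 24 h to 48 h, and no regulator was called at 48 h against 0 h.

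The cytosolic ribosomal protein genes and the nuclear genes of oxidative phosphorylation served for comparison. Of the 88 cytosolic genes, 26 were lower at 24 h and 18 at 48 h against 0 h, with 0 higher at either time, and their median log2 fold changes were -0.45 and -0.26. From 24 h to 48 h, 18 of them were higher and 0 lower, with a median of 0.18, whereas the median of the mitochondrial ribosomal protein genes was -0.12. Of 84 oxidative phosphorylation genes tested, 8 fell and 2 rose from 0 h to 24 h, 19 fell and 2 rose from 0 h to 48 h, and 10 fell and 1 rose from 24 h to 48 h, with medians of -0.08, -0.22 and -0.14. The shares called were 29.5%, 20.5% and 20.5% of the cytosolic and 11.9%, 25% and 13.1% of the oxidative phosphorylation genes in the 3 comparisons. Of all genes, 25.5%, 31.6% and 21.3% were called. Those called lower were 14.2%, 18.5% and 12.7% of all genes, and those called higher 11.4%, 13.0% and 8.61%. The differences between these lists and the mitochondrial ribosomal protein genes were not tested. The order of the 0 h libraries in both lists was that of the mitochondrial ribosomal protein genes, with median positions of -0.11, 0.33 and 0.49 for the cytosolic genes and -0.25, 0.20 and 0.31 for the oxidative phosphorylation genes.

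Markers of other cell types were read in the same libraries, although the co-culture groups had been sorted for EGFP. The summed level of 8 germ cell markers ran from 1809 to 2838 CPM at 0 h, 2141 to 2367 CPM at 24 h and 2135 to 2352 CPM at 48 h, and of the 7 tested 1 was called higher at 24 h and 1 lower at 48 h. That of 6 stromal and fibroblast markers ran from 261 to 357, 2096 to 2425 and 2809 to 3104 CPM, with 4 of 6 called higher at 24 h and at 48 h. For 8 Sertoli cell markers the sum was at most 25.1 CPM at 0 h and ran from 75.1 to 128.9 and from 115.1 to 129.7 CPM later, with 7 of 8 higher at both times and 1 lower at 24 h. For 6 peritubular myoid markers they were 13.8 to 15.6, 146 to 208 and 263 to 321 CPM, with 5 of 6 higher at both times, and for 6 Leydig cell markers 4.49 to 6.80, 24.6 to 38.6 and 25.3 to 32.6 CPM, with Hsd3b1 and Insl3 at 0 in every 0 h library and Lhcgr at 0 at 24 h. Of the 3 Leydig markers tested, 2 were higher at 24 h and 3 at 48 h. The 4 endothelial markers went from 43.3 to 47.3 CPM at 0 h down to 14.4 to 18.7 CPM at 24 h and 12.2 to 12.8 CPM at 48 h, with 1 higher and 2 lower at each time. The 4 macrophage markers went from 15.5 to 17.3 CPM down to 5.72 to 9.53 and 5.50 to 7.50 CPM, and of the 2 tested 1 was higher at 24 h and 1 was lower at each time. Beside these markers, 11.4% and 13.0% of all genes were called higher and 14.2% and 18.5% lower at 24 h and 48 h against 0 h. A change of level within the sorted cells and RNA of other cells cannot be told apart here, and the part of either in the changes of the mitochondrial ribosomal protein genes was not tested.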

How the data were processed

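Poly-A RNA of 9 libraries of EGFP-SSCs was measured by RNA-seq, and the authors deposited raw counts of reads per Ensembl gene. The submitters' processing notes name fastp, HISAT2, featureCounts and GRCm38. The annotation release and the strand setting are not given in the sources used here. Of 46078 identifiers, 45229 were matched to GENCODE M21, and the other 849 took at most 0.121% of the counts of a library. Totals of 16825251 to 22201892 counts set the precision, and a gene with up to 3 counts per library was treated as at the floor. Counts of replicates differed beyond sampling noise (chi-square 7.13 to 81.4 times its degrees of freedom).

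Each comparison used the 6 libraries of its groups in edgeR 4.0.16 (R 4.3.3) with filterByExpr, TMM and the two-sided quasi-likelihood test, with Benjamini-Hochberg adjustment over all genes tested and a threshold of 0.05. CPM were TMM-normalized over the 9 libraries, and FPKM used the union of exons. Shared sequence was found with BLAST 2.17.0 (windows of 75 bases, 97% identity). Figures were drawn with matplotlib 3.10.9. In simulated data for 24 h against 0 h, 48 h against 0 h and 48 h against 24 h, 200 genes were changed 3-fold. In that order, 134, 150 and 180 were recovered, with 8, 16 and 19 false calls among 17233, 17388 and 17210 genes. The raised genes among the 200 had median log2 fold changes of 1.60, 1.56 and 1.59. The largest log2 fold changes of the 77 genes were 0.90, 1.20 and 0.81 in size. Recovery of changes below 3-fold was not tested. The simulated counts were drawn independently for each gene, with no library offset common to a set of genes. False calls from such offsets could therefore not appear in them.

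Genes were named by rule: per comparison up to 6 called members with the largest rise and 6 with the largest fall, the 5 highest and 3 lowest in FPKM, members that failed the filter or whose position differs from their name, and the 2 largest called changes of each further list. The members and lists were chosen with earlier results of these data known. Alternatives were DESeq2 1.42.0, its size factors or library size alone in edgeR, no filter, a minimum of 10 counts per library, a joint fit of the 9 libraries, a block for the replicate number, natural spline offsets for GC content (5 degrees of freedom) and length (4), block and offsets combined, the longest transcript as gene length, and leaving out each library.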

Additional observations from a re-analysis of the deposited data

How the results depend on the processing

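No called gene reversed under any alternative, and 3 of the 6 calls at 24 h against 0 h, 5 of the 13 at 48 h against 0 h and 0 of the 17 at 48 h against 24 h were kept in all 15. The number of genes called, beside 6, 13 and 17 in that order, was 11 with library size alone in the first comparison; 13, 19 and 0 with all 9 libraries in 1 fit; and 15, 25 and 13 with GC and length offsets. Beside these, all genes were called at 27.3%, at 31.5%, 38% and 5.71%, and at 36.2%, 43% and 20.6%. Leaving out 1 library gave 3 to 15, 5 to 26 and 2 to 17, beside 14.4% to 33.4%, 19% to 38.7% and 10.4% to 24.3% of all genes. The medians, -0.03, -0.11 and -0.12, became 0.085 and 0.0016 with library size alone and 0.018 with at least 10 counts in every library at 24 h, and ranged over -0.14 to 0.15, -0.17 to 0.045 and -0.17 to -0.05 on leaving out 1 library. Deviations from the group means correlated at -0.28 to 0.20 between same-numbered libraries of 2 groups and at -0.39 to 0.38 between differently numbered ones. As these ranges overlap, they cannot show whether the cultures were paired by replicate number. With the replicate block 5, 7 and 3 genes were called, beside 17.1%, 22.6% and 14.3% of all genes. With the block and the GC and length offsets 11, 24 and 10 were called, beside 30.6%, 38.9% and 15.7% of all genes. The causes of these shifts were not tested. With 3 libraries per time the median standard error of a change was 0.16 against 0 h at both times and 0.091 between 24 h and 48 h, so smaller changes were less detectable against 0 h.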
